A study of Mus musculus with 6 samples.

Results

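The retinal transcripts of the ALPK1-TIFA route to NF-κB were examined in Wfs1 mutant mice. The route was represented by 10 genes, taken by symbol from the 55376 genes of the deposited count table: Alpk1, Tifa, Traf2, Traf6, Map3k7, Tab2, Ikbkb, Nfkb1, Rela and Nfkbia. The set was chosen by the counts of Alpk1, which were higher in mutant than in WT retinas in earlier results of these same libraries, and the other 9 genes were added because they act with or after it, so the difference of these genes between genotypes is given as a description, with no p-value, and the counts of calls among them are set beside the background and support nothing. RNA was sequenced from whole retinas of 3 WT and 3 Wfs1-KO (Wfs1-/-) mice, all untreated and at postnatal day 240, each library coming from a different mouse. Both genotypes carry the strain label C57x129, while the study's methods describe a C57BL/6 J background. The mutant mice carry a targeted deletion of the last exon of Wfs1, the gene mutated in Wolfram syndrome, in every cell of the body, so the retina is mutant together with all other organs. Nothing in the labels gives the sex of the mice.

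ALPK1 is a cytosolic alpha-kinase that senses ADP-heptose, a sugar nucleotide made by Gram-negative bacteria. Once active, it phosphorylates the adaptor TIFA, which then assembles into large complexes that recruit TRAF6 and TRAF2, and these engage the kinase TAK1 (encoded by Map3k7) through its partner TAB2. TAK1 activates the IκB kinase complex, whose catalytic subunit IKKβ is encoded by Ikbkb, and the degradation of IκBα (Nfkbia) then releases the p50 (Nfkb1) and p65 (Rela) subunits of NF-κB into the nucleus. Inherited gain-of-function variants of human ALPK1 cause ROSAH syndrome, which combines retinal dystrophy with swelling of the optic nerve head. Most steps of this route are protein modifications, which RNA-seq does not measure.

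The libraries held 17916885 (WT replicate 3) to 101334381 (Wfs1-KO replicate 1) counts. CPM below means counts divided by the TMM-adjusted size of their library and put on a common scale, and, where genes are compared with each other, RPKM means the same value per kilobase of exon. The targeted gene Wfs1 had 64.9, 61.4 and 69.9 CPM in WT replicates 1, 2 and 3, against 9.63, 0.900 and 11.5 CPM in the mutants in the same order, so that all 3 mutants lay below all WT retinas. The log2 fold change of Wfs1 was -3.15 ± 0.77 (SE) with an adjusted p of 0.979 in edgeR's quasi-likelihood test on all 6 retinas, and -2.64 with an adjusted p of 2.84e-05 without Wfs1-KO replicate 2. That library stood apart, with a mean correlation of log2 CPM to the others of 0.918 against at least 0.962 for each of the other 5. It was also the library richest in markers of several other cell types. The summed level of 15 microglia and macrophage genes was 425 CPM in it and 95.7 to 131 CPM in the other 5 retinas, the sum of 5 haemoglobin and other red cell genes was 480 CPM against at most 41.2 CPM, and keratin Krt14 was at 21.3 CPM against at most 0.182 CPM. The retinal identity of every library was seen in 10 Müller glia genes, which summed to 6360 to 9969 CPM, and 5 ganglion cell genes, which summed to 620 to 816 CPM. In WT replicate 3 only 4 counts fell on Xist, against 10583 or more in every other library. The differences of the 10 genes, and those of other genes that turn or shrink with that library, are therefore also given without Wfs1-KO replicate 2.

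Alpk1 and Tifa lie beside each other in the mouse genome. Alpk1 occupies chr3:127670310-127780527 on the minus strand of mm10 and Tifa chr3:127789805-127798389 on the plus strand. The genes thus point away from each other, and the coordinates of their nearest ends differ by 9278. No exon of either gene shares a base with an exon of another gene, and the same held for the other 8 genes. RefSeq promoter windows of 300 bases (250 before a transcript start and 50 after it, GRCm38.p6, the assembly that mm10 names) were held for 8 of the 10 genes, with 10 windows in all, and not for Ikbkb and Nfkb1. The windows of the Alpk1-Tifa pair are shown because both genes were higher in every mutant retina, and that of Nfkbia because it is a known NF-κB target and the gene most unequal between mutants. Each is written 5′ to 3′ on the strand of its gene, and capitals mark matches to the κB consensus or to the STAT motif TTCNNNGAA, searched on both strands.
Alpk1 (chr3:127780478-127780777, minus strand): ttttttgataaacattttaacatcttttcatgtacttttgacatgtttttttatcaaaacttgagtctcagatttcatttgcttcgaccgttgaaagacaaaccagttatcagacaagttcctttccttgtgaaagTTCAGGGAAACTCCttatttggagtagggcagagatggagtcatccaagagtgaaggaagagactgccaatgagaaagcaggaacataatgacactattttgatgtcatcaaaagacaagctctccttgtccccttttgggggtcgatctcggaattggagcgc
Tifa start 1 (chr3:127789622-127789921, plus strand): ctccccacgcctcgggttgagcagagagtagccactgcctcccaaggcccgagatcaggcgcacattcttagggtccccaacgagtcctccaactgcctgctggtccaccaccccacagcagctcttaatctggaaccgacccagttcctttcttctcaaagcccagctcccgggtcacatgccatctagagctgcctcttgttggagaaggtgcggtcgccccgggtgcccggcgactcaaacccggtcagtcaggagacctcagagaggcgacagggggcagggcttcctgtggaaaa
Tifa start 2 (chr3:127790407-127790706, plus strand): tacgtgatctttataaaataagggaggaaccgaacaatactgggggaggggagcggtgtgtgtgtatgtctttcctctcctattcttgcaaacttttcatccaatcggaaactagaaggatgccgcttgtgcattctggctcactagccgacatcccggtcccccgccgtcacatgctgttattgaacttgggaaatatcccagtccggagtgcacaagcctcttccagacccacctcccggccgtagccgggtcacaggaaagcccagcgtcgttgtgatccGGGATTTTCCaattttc
Nfkbia (chr12:55492598-55492897, minus strand): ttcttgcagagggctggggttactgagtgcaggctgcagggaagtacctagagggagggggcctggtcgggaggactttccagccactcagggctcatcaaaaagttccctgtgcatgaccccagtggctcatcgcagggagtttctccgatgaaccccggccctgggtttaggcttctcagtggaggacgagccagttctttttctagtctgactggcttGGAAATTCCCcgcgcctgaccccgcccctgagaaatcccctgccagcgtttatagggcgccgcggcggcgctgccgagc

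In the Alpk1 window a κB match, GGGAAACTCC, began 110 bases before the start and shared 5 bases with a STAT match, TTCAGGGAA. The second Tifa window held GGGATTTTCC from 34 bases after its start, and the first held neither motif. The Nfkbia window held GGAAATTCCC from 29 bases before its start, and the same letters stood 92 bases before the start of Map3k7. The windows of Traf2, Traf6, Tab2 and Rela held no match. In all, 4 of the 10 windows held a κB match, against 8.46% of the 32851 promoters of the table. A STAT match was in 1 of the 10 windows and in 8.30% of all promoters, and both motifs stood together in 0.639%. The motifs were chosen after the Alpk1 window had been seen, and a match describes letters, not a bound site.

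Alpk1, the kinase that starts the route, was the least abundant of the 10 transcripts in WT retinas and the one with the largest difference between genotypes. WT replicates 1, 2 and 3 had 1.94, 2.48 and 1.48 CPM, and Wfs1-KO replicates 1, 2 and 3 had 7.62, 4.31 and 8.40 CPM. The lowest mutant retina lay above the highest WT retina, and the mutants with the highest values, replicates 1 and 3, were close to each other while replicate 2 lay between them and WT. WT retinas averaged 1.97 ± 0.50 CPM (SD, n = 3) and mutant retinas 6.78 ± 2.17 CPM (SD, n = 3), a ratio of 3.45, and 4.07 without replicate 2. These levels rest on 129, 118 and 26 counts in WT and 785, 182 and 370 counts in mutant replicates 1, 2 and 3. The 26 counts of WT replicate 3 have an exact Poisson interval (confidence level 95%) of 17.0 to 38.1 counts, or 0.964 to 2.16 CPM for counting error only. The log2 fold change was 1.77 ± 0.35 (SE), 1.99 ± 0.24 without Wfs1-KO replicate 2 and 1.60 ± 0.41 without WT replicate 3, the library with almost no Xist.

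Of the mutants, Wfs1-KO replicate 2 had the highest microglia, pigment epithelium and astrocyte markers and the lowest Alpk1. In that library most genes of 4 to 6 kb of exon, the length bin of Alpk1, were also below the other mutants (median log2 ratio of -0.40). The parts of cell makeup and exon length in its low Alpk1 cannot be told apart. In replicates 1 and 3 the microglia and macrophage sum was 131 and 97.1 CPM, against 95.7 to 109 CPM in WT. Pigment epithelium genes summed to 87.4 and 49.1 CPM in mutant replicates 1 and 3 and 110 to 166 CPM in WT, and to 395 CPM in replicate 2. Without replicate 2, 6 of these 8 genes were lower at an unadjusted p under 0.05 in edgeR, beside 438 of all 18547 genes. In that fit edgeR called 1 of the 8 lower (0.125% of all genes called) and their median log2 fold change was -1.01. DESeq2 called 4 lower without replicate 2 (0.475% of all genes called). The 5 astrocyte genes summed to 87.9, 186 and 57.0 CPM in mutant replicates 1, 2 and 3 and 43.5 to 56.8 CPM in WT. In edgeR 5 of the 5 had a log2 fold change above 0, and 4 without replicate 2. DESeq2 called 1 of them higher in each fit, where it called 0.246% and 0.475% of all genes. The 8 lens genes summed to 2.73, 1.75 and 1.88 CPM in mutant replicates 1, 2 and 3 and 1.36 to 1.54 CPM in WT. There every mutant lay above WT, as in 5.01% of all single genes tested, and replicate 2 was the lowest mutant. Only 3 of the 8 genes could be tested in edgeR. Of these 3, 2 had a log2 fold change above 0, and 0 passed an unadjusted p of 0.05 in edgeR on all 6 retinas. Without replicate 2 these counts were 2 and 1. The 6 endothelium genes summed to 316, 329 and 323 CPM in the mutants and 232 to 323 CPM in WT. The part of these cell types in the level of Alpk1 was not tested. In whole tissue, more cells that express a gene and more RNA per cell cannot be told apart.

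Tifa, the substrate of ALPK1 and the adaptor that carries its signal, was also higher in every mutant. Its levels were 12.9, 13.5 and 11.5 CPM in WT replicates 1, 2 and 3 and 18.3, 18.7 and 20.5 CPM in the mutants. The groups did not overlap, and Wfs1-KO replicate 2 lay between the other mutants. WT retinas averaged 12.6 ± 1.06 CPM (SD, n = 3) and mutant retinas 19.2 ± 1.18 CPM (SD, n = 3), a ratio of 1.52. The log2 fold change was 0.60 ± 0.17 (SE) and 0.61 ± 0.16 without Wfs1-KO replicate 2. Per length, Tifa exceeded Alpk1 in every retina: the ratio of their RPKM values was 10.7, 8.82 and 12.6 in WT replicates 1, 2 and 3 and 3.88, 7.03 and 3.95 in the mutants. The ratio was thus lower in each mutant than in any WT retina, since Alpk1 differed more than its adaptor.

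**Figure D1:**
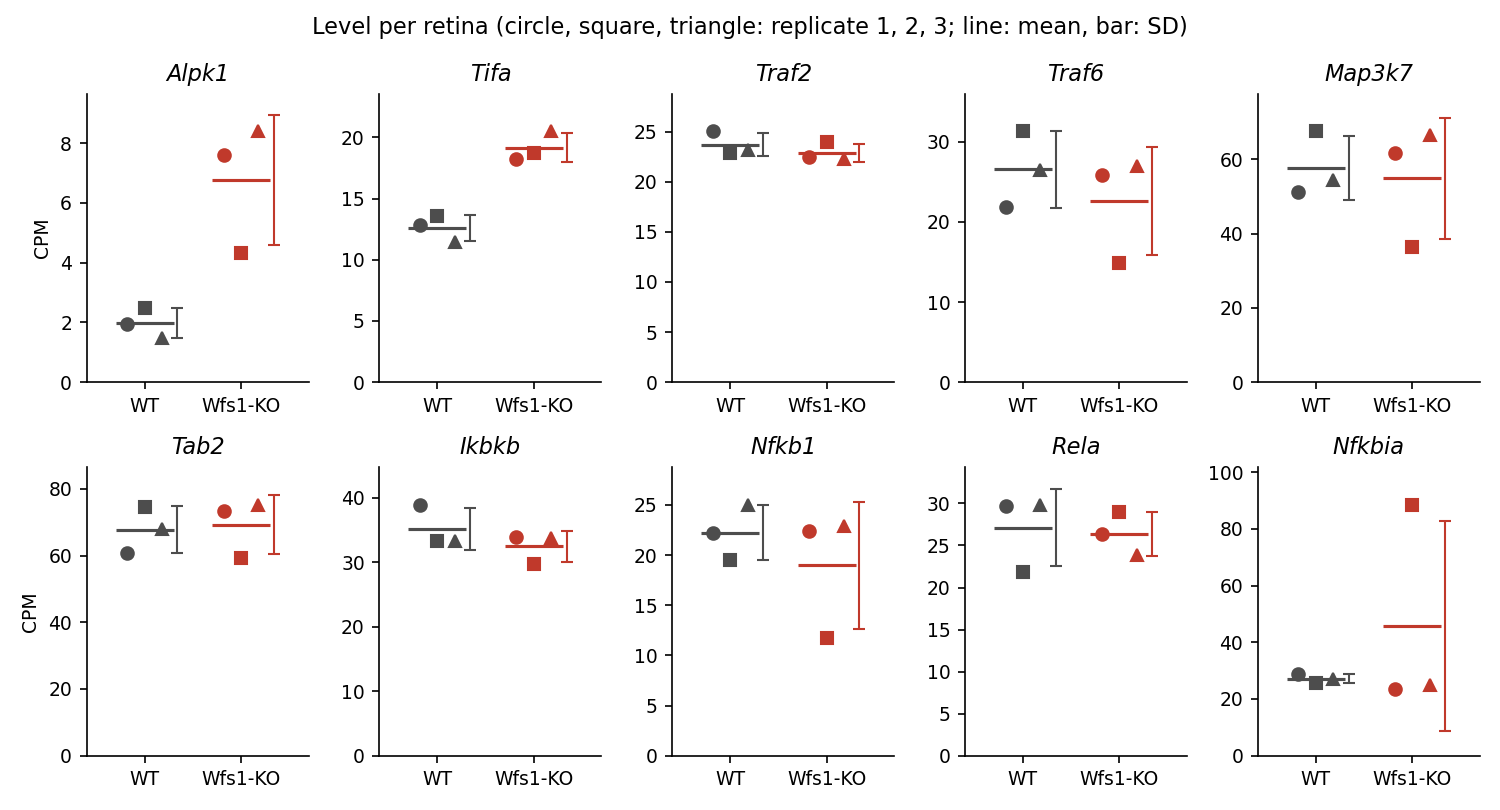
CPM (y axis, from 0) of each of the 10 genes in 3 WT (grey) and 3 Wfs1-KO (red) retinas, with circles, squares and triangles for replicates 1, 2 and 3, a line at the group mean and a bar of 1 SD. Alpk1 and Tifa were higher in every mutant than in every WT retina, Nfkbia was at 88.5 CPM in mutant replicate 2 alone, and the other 7 genes overlapped between genotypes.

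The TRAF ligases, which join TIFA to the kinase complexes, overlapped between genotypes. Traf6 (chr2:101678440-101701669, plus strand) had 21.8, 31.3 and 26.5 CPM in WT and 25.9, 14.8 and 27.0 CPM in mutant replicates 1, 2 and 3, a log2 fold change of -0.23 ± 0.27 (SE) that came to -0.01 ± 0.17 without mutant replicate 2. In that retina Traf6 was lower than in any other, while the other mutants lay within the WT range. Traf2 (chr2:25517982-25546940, minus strand) had 25.1, 22.9 and 23.2 CPM in WT and 22.4, 23.9 and 22.3 CPM in the mutants, with a log2 fold change of -0.05 ± 0.16. It was the steadiest of the 10 genes, with a coefficient of variation of 4.92% in WT and 3.97% in the mutants. Without replicate 2 both remaining mutants lay below WT, but by a log2 fold change of -0.09 ± 0.14 only.

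The kinases of the route also overlapped. Map3k7 (chr4:31964097-32023467, plus strand), which encodes TAK1, had 51.1, 67.5 and 54.3 CPM in WT and 61.8, 36.3 and 66.6 CPM in mutant replicates 1, 2 and 3. The log2 fold change of -0.07 ± 0.26 (SE) came to 0.15 ± 0.15 without replicate 2, and to 0.06 without WT replicate 2, so that its sign changed with single retinas. Tab2 (chr10:7905653-7956230, minus strand), the ubiquitin-binding partner of TAK1, had 60.7, 74.6 and 67.9 CPM in WT and 73.4, 59.2 and 75.3 CPM in the mutants, with log2 fold changes of 0.03 ± 0.18 and, without replicate 2, 0.13 ± 0.14, and as low as -0.04 without WT replicate 1. For both genes mutant replicate 2 was the lowest of all 6 retinas, and the other mutants lay within or just above the WT range. Ikbkb (chr8:22659212-22706589, minus strand) had 38.9, 33.2 and 33.4 CPM in WT and 33.9, 29.7 and 33.8 CPM in the mutants, a log2 fold change of -0.12 ± 0.17, and -0.06 ± 0.14 without replicate 2. Apart from replicate 2, the mutant values of this IκB kinase gene lay inside the WT range.

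The NF-κB subunits gave no difference beyond the spread between retinas. Nfkb1 (chr3:135584655-135691546, minus strand), which encodes p105 and its product p50, had 22.2, 19.5 and 25.0 CPM in WT and 22.4, 11.7 and 22.9 CPM in mutant replicates 1, 2 and 3. This gave a log2 fold change of -0.23 ± 0.28 (SE), or 0.02 ± 0.16 without replicate 2, which again was the lowest retina. Rela (chr19:5637483-5648130, plus strand), which encodes p65, had 29.6, 21.8 and 29.9 CPM in WT and 26.3, 28.9 and 23.8 CPM in the mutants, all 3 inside the WT range, with a log2 fold change of -0.04 ± 0.20, -0.11 ± 0.17 without replicate 2 and up to 0.03 without WT replicate 1. Nfkb1 lies on the same chromosome as Alpk1 and Tifa but several megabases from them.

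Nfkbia (chr12:55489410-55492647, minus strand), which encodes the inhibitor IκBα and is itself switched on by NF-κB, was set by 1 retina. It had 28.7, 25.6 and 27.2 CPM in WT and 23.4, 88.5 and 25.0 CPM in mutant replicates 1, 2 and 3. The log2 fold change of 0.75 ± 0.51 (SE) turned to -0.17 ± 0.14 without replicate 2, and the remaining mutants then lay below all WT retinas. Per length, the ratio of Nfkbia to Rela was 1.67, 2.02 and 1.57 in WT, 5.27 in mutant replicate 2 and 1.53 and 1.81 in replicates 1 and 3, so that only replicate 2 left the WT range upwards. The high Nfkbia of replicate 2 came with the high microglia, red cell and keratin markers of that library, whose part in it was not tested.

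Of the 10 genes, 2 lay higher in all mutants than in all WT retinas, Alpk1 and Tifa, as did 5.01% of the 18547 genes tested. Lower in all mutants lay 0 of the 10, where 731 of the 18547 did. Without Wfs1-KO replicate 2 the same pair lay above WT, where 11.4% of all genes did, and Traf2 and Nfkbia lay below, where 11.2% did. At an adjusted p under 0.05, edgeR called 0 of the 10 genes on all 6 retinas (0.0108% of all genes tested) and 1, Alpk1, without replicate 2 (0.125%). DESeq2 called 1, Alpk1, on all 6 retinas (0.246%) and again without replicate 2 (0.475%). At an unadjusted p under 0.05, edgeR's calls were 2 of 10, Alpk1 and Tifa, in both fits, against 2.81% of all genes on 6 retinas and 5.19% without replicate 2. Since Alpk1 was chosen for this difference, these counts say where it stands and carry no independent weight. The median log2 fold change of the 10 genes was -0.05, and 0.01 without replicate 2, beside 0.02 and 0.00 for all genes tested in the same fits, and the 7 genes other than Alpk1, Tifa and Nfkbia ranged from -0.23 to 0.03 and, without replicate 2, from -0.11 to 0.15.

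**Figure D2:**
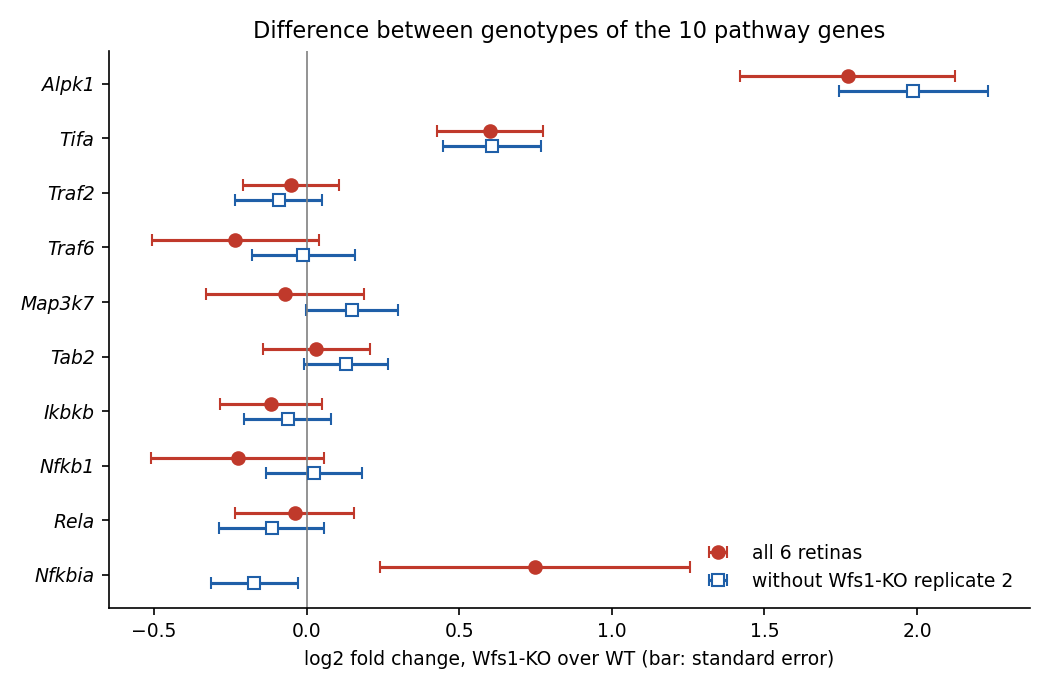
Log2 fold change of Wfs1-KO over WT (x axis, bars of 1 SE) for the 10 genes, in the fit on all 6 retinas (filled circles) and without Wfs1-KO replicate 2 (open squares). Alpk1 and Tifa kept their values between the fits, Nfkbia went from 0.75 to -0.17, and the other 7 genes lay near 0.

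Over all tested genes, the difference of Wfs1-KO replicate 2 from the other mutants went with exon length. The ratio of Wfs1-KO replicate 2 to the mean of replicates 1 and 3 had a log2 median of 0.70 over the 5485 tested genes with up to 2 kb of exon, 0.04 over the 6710 genes of 2 to 4 kb, -0.40 over the 3556 genes of 4 to 6 kb and -0.65 over the 2602 longer genes. Nfkbia, the shortest of the 10 with 1578 bases of exon, had a ratio of 1.87 on this log2 scale. Rela, Tifa and Traf2, of 2716 to 3065 bases, had 0.21, -0.05 and 0.10. The longer genes were all lower in replicate 2: Nfkb1 by a log2 ratio of -0.95, Alpk1 of -0.89, Traf6 of -0.83, Map3k7 of -0.82, Tab2 of -0.33 and Ikbkb of -0.19. Alpk1, with 4865 bases of exon, lay on the side of 0 of most tested genes of 4 to 6 kb, but below their lower quartile of -0.81. Tab2 and Ikbkb, of the same bin, lay between its quartiles. The part of length in the low Alpk1 of replicate 2 was not tested.

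**Figure D3:**
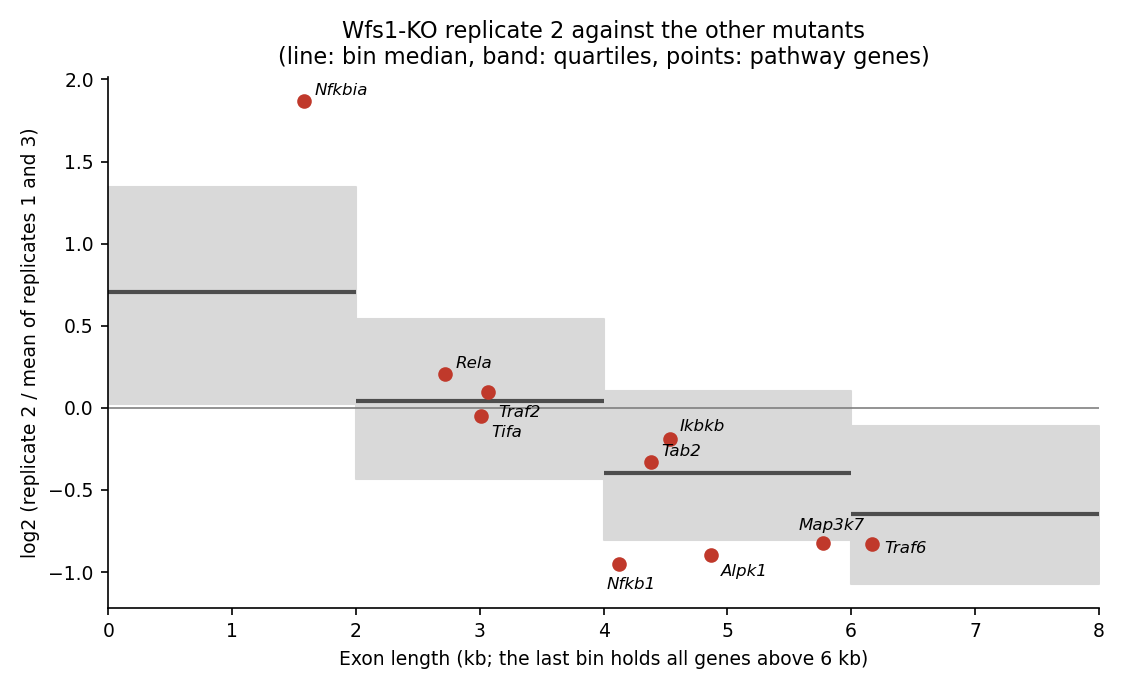
Log2 ratio of the level in Wfs1-KO replicate 2 to the mean of replicates 1 and 3 (y axis) against exon length in kb (x axis), with a line at the median and a band between the quartiles of all tested genes in each length bin, and points for the 10 genes. The bin medians fell from 0.70 to -0.65, Nfkbia lay above its bin's band at 1.87, and Nfkb1, Alpk1 and Map3k7 lay below theirs at -0.95, -0.89 and -0.82.

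Compared per length in WT retinas, Nfkbia was the most abundant transcript of the route with 17.2 ± 0.97 RPKM (SD, n = 3), followed by Tab2 with 15.5 ± 1.60, Map3k7 with 9.99 ± 1.51, Rela with 9.98 ± 1.69, Ikbkb with 7.76 ± 0.72, Traf2 with 7.74 ± 0.38, Nfkb1 with 5.39 ± 0.67, Traf6 with 4.30 ± 0.77, Tifa with 4.20 ± 0.35 and Alpk1 with 0.404 ± 0.103 RPKM. Neighbours in this order were separated beyond their range over the 3 retinas only at Tab2 over Map3k7, Traf2 over Nfkb1 and Tifa over Alpk1. The kinase that starts the route was thus the one transcript set clearly below all others. In the mutants Alpk1 had 1.39 ± 0.45 RPKM (SD, n = 3) and was still the lowest of the 10, while Tifa, at 6.37 ± 0.39 RPKM, lay in every mutant above Traf6 and Nfkb1 (3.66 ± 1.09 and 4.61 ± 1.53 RPKM).

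The 5 genes whose profile over the 6 retinas was nearest to that of Alpk1, by the root mean square difference of centred log2 CPM among 15002 genes, were Uaca (0.40), Snx20 (0.42), Gm16675 (0.43), Tnfrsf8 (0.46) and Filip1 (0.49). Likeness to Alpk1 selects genes that are higher in mutants, so their differences are a description. Uaca had 24.7, 20.8 and 21.1 CPM in WT and 58.4, 48.2 and 54.5 CPM in mutant replicates 1, 2 and 3, a log2 fold change of 1.27 ± 0.17 (SE), and 1.34 ± 0.14 without replicate 2, with little spread in either group. Tnfrsf8, which encodes the TNF receptor family member CD30, had 6.96, 5.17 and 4.54 CPM in WT and 10.5, 8.10 and 15.1 CPM in the mutants. Filip1 had 3.70, 4.64 and 5.33 CPM in WT and 14.2, 4.69 and 15.9 CPM in the mutants, so that its replicate 2 fell within the WT range. Snx20 and Gm16675 were expressed at most at 1.85 CPM.

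The genes around Alpk1 and Tifa were taken by position, where the start of a gene means its lowest coordinate. For Alpk1, on the minus strand, this is position 127670310, the end of the gene away from its promoter window. Of the tested genes whose start lies within 1 Mb of the Alpk1 start, Alpk1 and Tifa aside, 0 of 10 passed an adjusted p of 0.05 in edgeR. The same held without Wfs1-KO replicate 2, beside 0.0108% and 0.125% of all genes tested. At an unadjusted p under 0.05 in edgeR, 0 passed in either fit, beside 2.81% and 5.19% of all genes. With such shares, 0 of 10 says little about these neighbours. DESeq2 called 0 of the 10 as well, with 1 at an unadjusted p under 0.05 on all 6 retinas. Their median log2 fold change was 0.00, and -0.13 without replicate 2. Within 500 kb the tested neighbours were Larp7, Zgrf1, Neurog2, Ap1ar, Gm43653 and Fam241a. Larp7, whose product binds the small nuclear RNA 7SK, had 29.9, 30.7 and 27.3 CPM in WT and 23.9, 92.1 and 26.5 CPM in the mutants, the same shape as Nfkbia, with a log2 fold change of 0.69 ± 0.51 (SE) that turned to -0.23 ± 0.14 without replicate 2. Neurog2, a proneural transcription factor, had -0.16 ± 0.26, and -0.05 ± 0.23 without replicate 2. Gm43653, at no more than 0.639 CPM, had 0.86 ± 0.44 and 0.73 ± 0.53, and Ap1ar, Zgrf1 and Fam241a lay between -0.33 and -0.11, and between -0.22 and -0.09 without replicate 2.

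**Figure D4:**
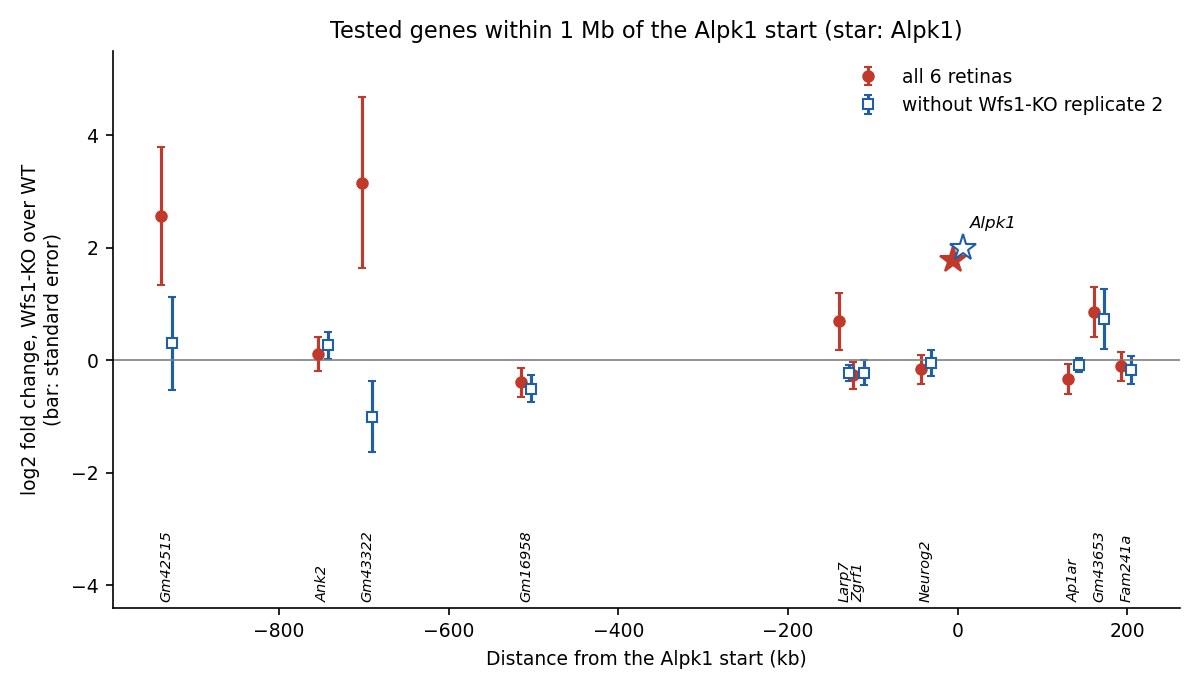
Log2 fold change of Wfs1-KO over WT (y axis, bars of 1 SE) of the 10 tested neighbours against the distance of their lowest coordinate from that of Alpk1 in kb (x axis). Filled circles show all 6 retinas, open squares the fit without Wfs1-KO replicate 2, and stars Alpk1. Alpk1 had 1.77 and 1.99, Gm43322 went from 3.16 to -1.01 and Gm42515 from 2.56 to 0.30 between the fits, and the neighbours within 500 kb stayed between -0.33 and 0.86.

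Further genes of the route were taken in 6 lists that hold 117 genes, of which 102 were tested in edgeR. edgeR called 0 of the 102 at an adjusted p under 0.05 with all 6 retinas and 0 without Wfs1-KO replicate 2, beside 0.0108% and 0.125% of all genes tested. At an unadjusted p under 0.05 it passed 5 higher and 1 lower in both fits, beside 416 higher and 105 lower of all 18547 genes on 6 retinas, and 507 and 438 of the same genes without replicate 2. DESeq2 called 0 on all 6 retinas, where it gave Lcn2 no adjusted p, and 2, Nod2 and Lcn2, without replicate 2, where it called 0.475% of all genes. The median log2 fold change of the 102 genes was 0.09, and 0.03 without replicate 2, beside 0.02 and 0.00 for all genes. With so small a share called over all genes, 0 calls say little, here and in the single lists below.

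The other kinases of the same family gave smaller values than Alpk1. The 5 other alpha-kinase genes had log2 fold changes with a median of 0.23, and 0.36 without replicate 2, where all 5 were above 0, and 0 of 5 passed an unadjusted p of 0.05 in either edgeR fit. Alpk2 had 6.43, 6.35 and 11.0 CPM in WT and 9.14, 7.60 and 10.9 CPM in mutant replicates 1, 2 and 3, a log2 fold change of 0.23 ± 0.29 (SE) with an adjusted p of 0.979 in edgeR, and 0.36 ± 0.25 without replicate 2. Eef2k, the kinase of elongation factor 2, had 0.20 ± 0.19 and 0.28 ± 0.17, and Trpm7, a channel with a kinase domain, -0.23 ± 0.41 and 0.12 ± 0.19 without replicate 2. Whether Alpk1 differed more than these genes was not tested.

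Of the 21 tested receptors and adaptors that feed NF-κB from other sensors, 0 were called by edgeR and 1, Nod2, by DESeq2 without Wfs1-KO replicate 2. Nod2, a cytosolic sensor of bacterial peptidoglycan fragments, had 0.963, 0.799 and 2.16 CPM in WT and 4.06, 1.61 and 4.36 CPM in mutant replicates 1, 2 and 3. Mutant replicates 1 and 3 lay above all WT retinas and replicate 2 within them. Its log2 fold change was 1.39 ± 0.54 (SE) with an adjusted p of 0.979 in edgeR, and 1.78 ± 0.38 without replicate 2, where the adjusted p was 0.222 in edgeR and 0.00262 in DESeq2. The TNF receptors Tnfrsf1a and Tnfrsf1b had 0.65 ± 0.41 and 0.83 ± 0.51, and 0.05 ± 0.21 and 0.25 ± 0.36 without replicate 2, and Cd14, a co-receptor for lipopolysaccharide, had 0.55 ± 0.36 and 0.14 ± 0.26. The median of this list was 0.21, and 0.08 without replicate 2.

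The partners of the TRAF and TAK1 steps gave list medians near 0. Of the 21 tested TRAF, TAB and ubiquitin genes, 0 passed an unadjusted p of 0.05 in either edgeR fit, and their median was 0.08, and -0.02 without replicate 2. Tnfaip3, which encodes the deubiquitinase A20 that ends NF-κB signalling, had 362, 419 and 475 CPM in WT and 428, 162 and 397 CPM in the mutants, a log2 fold change of -0.35 ± 0.36 (SE) that came to -0.03 ± 0.14. The others with the largest values among genes of at least 50 mean counts were Otulin (0.30 ± 0.24), Tradd (0.25 ± 0.32) and Traf7 (-0.25 ± 0.21), and they came to 0.06, -0.03 and -0.08 without replicate 2. In the MAP kinase arm of TAK1, 0 of 13 genes were called and the median was -0.13, and -0.03 without replicate 2. Fos, an AP-1 subunit, had 42.3, 44.0 and 36.6 CPM in WT and 28.4, 32.4 and 30.8 CPM in the mutants. All 3 mutants lay below WT, as in 731 of the 18547 genes tested. The log2 fold change of Fos was -0.43 ± 0.17, with an adjusted p of 0.979 in edgeR on all 6 retinas and 0.631 without replicate 2. Map2k6, which activates p38, had -0.44 ± 0.22, and -0.29 ± 0.17 without replicate 2. Atf2 went from -0.20 ± 0.26 to 0.02 ± 0.16 and Jun from -0.15 ± 0.20 to -0.03 ± 0.15.

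Of the 22 IKK and NF-κB partners, 0 were called and the median was -0.07, and -0.01 without replicate 2. Bcl3, a nuclear IκB protein, had 0.331, 0.546 and 0.114 CPM in WT and 0.990, 5.42 and 0.976 CPM in mutant replicates 1, 2 and 3. Every mutant lay above every WT retina, as in 5.01% of all genes tested, and the value of WT replicate 3 rests on fewer than 3 counts. The log2 fold change of Bcl3 was 2.80 ± 0.86 (SE) with an adjusted p of 0.979 in edgeR, and 1.44 ± 0.52 with 0.792 without replicate 2. Nfkb2 had 0.64 ± 0.32 and 0.48 ± 0.28, Relb 0.28 ± 0.42 and -0.19 ± 0.29, and Nkiras2 -0.30 ± 0.29 and -0.04 ± 0.14.

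The transcripts that NF-κB is known to switch on gave the highest median of the 6 lists on all 6 retinas, and it rested on 1 retina. Of 33 such genes edgeR tested 20 and called 0. The median of the 20 was 0.51 on all 6 retinas and 0.08 without Wfs1-KO replicate 2. Lcn2, an iron-scavenging acute-phase protein, had 1.82, 1.53 and 1.82 CPM in WT and 4.98, 77.4 and 4.27 CPM in mutant replicates 1, 2 and 3. Without the retina at 77.4 CPM, its log2 fold change went from 4.07 ± 1.18 (SE) to 1.42 ± 0.24, with an adjusted p of 0.0742 in edgeR and 0.00124 in DESeq2. The study describes Lcn2 as a direct STAT3 target and reports NF-κB signalling components as unchanged. Gadd45b, a stress-response gene, had 7.59, 7.17 and 5.96 CPM in WT and 9.20, 23.2 and 10.5 CPM in the mutants, with 1.05 ± 0.37 and, without replicate 2, 0.50 ± 0.19 (adjusted p of 0.821 in edgeR). C3, the central complement component, had 2.20 ± 0.81 and 0.73 ± 0.37, and Psmb9, an immunoproteasome subunit, 1.85 ± 0.88 and 0.48 ± 0.53. The other 13 targets, among them the cytokines Il6, Tnf, Ccl2, Cxcl1 and Csf2, had too few counts to be tested in edgeR. DESeq2 was run without that filter on low counts. At an unadjusted p under 0.05 in DESeq2, 4 of the 33 were higher and 1 lower on all 6 retinas. Without replicate 2, 3 were higher and 4 lower. Of the 18547 genes tested in edgeR, DESeq2 had 582 higher and 111 lower, and 458 and 433 without replicate 2. The counts of Il1b came to 116 in WT replicate 2 and did not exceed 14 in any other retina, and those of Saa3 to 158 in the same WT retina and 54 in mutant replicate 2, with no more than 2 elsewhere.

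**Figure D5:**
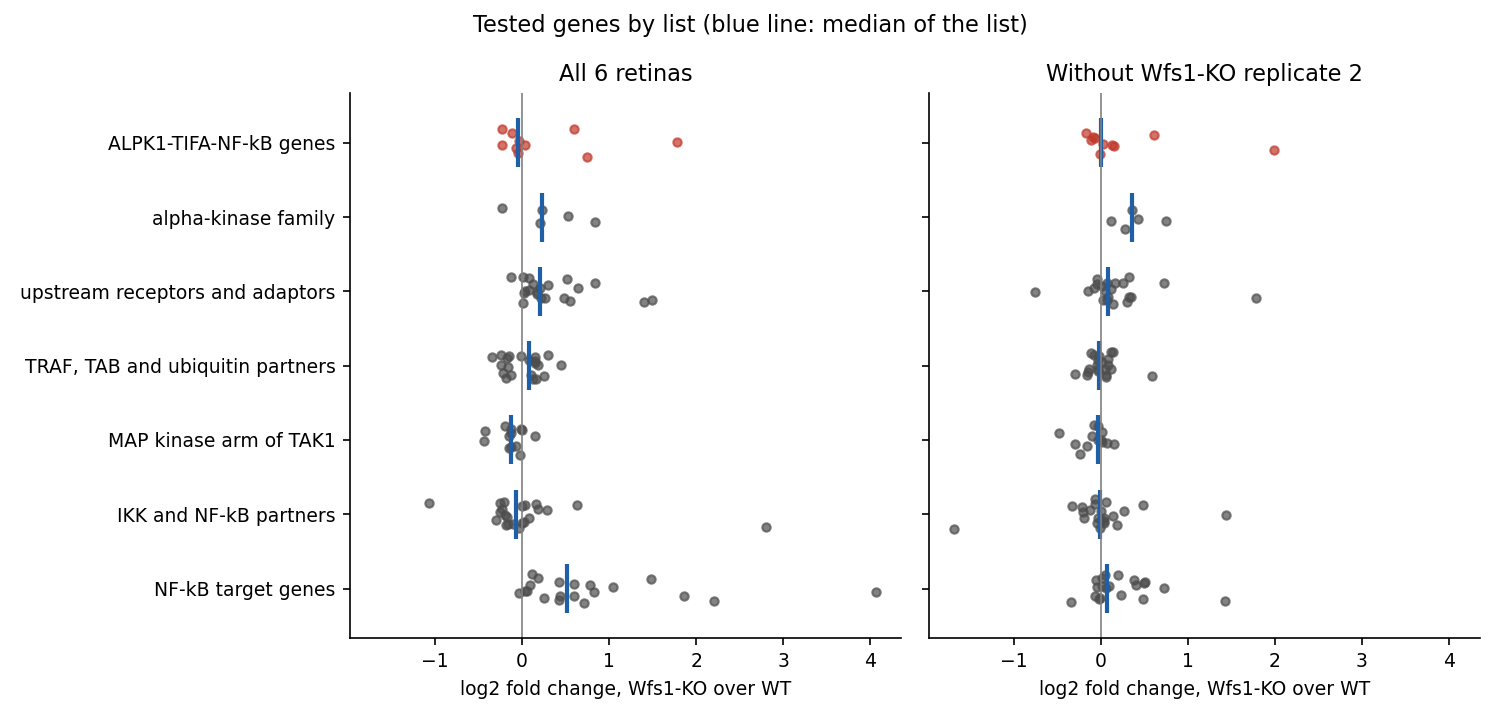
Log2 fold change of Wfs1-KO over WT (x axis) of every tested gene of the 10-gene route (red) and of the 6 further lists (grey), with all 6 retinas (left) and without Wfs1-KO replicate 2 (right), and a blue line at each list's median. The median of the NF-κB targets went from 0.51 to 0.08 between the panels, and Alpk1, at 1.77 and 1.99, stayed the highest of the 10.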

How the data were processed

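RNA-seq covered 1 retina library from each of 3 WT and 3 Wfs1-KO mice (postnatal day 240). The labels name Trizol and TruSeq, the study's methods a column kit. The authors trimmed the reads with Trimmomatic, mapped them to mm10 with STAR, summed exon reads per gene of a GENCODE annotation in featureCounts, and deposited raw counts (versions 0.39, 2.5.3a and 1.6.4 in the submitters' processing notes). The strand setting is not given in the sources used here. Of 8 library columns, 2 matched no listed sample and were not used; the letters W and C in the column names were read as Wfs1 mutant and control, and the Wfs1 counts of the columns fit that reading. RPKM and exon length use the deposited gene lengths.

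Counts were filtered (filterByExpr, 18547 of 55376 genes kept), scaled by TMM and tested with edgeR 4.0.16 (R 4.3.3), quasi-likelihood, genotype as the only term, Benjamini-Hochberg over all genes, threshold 0.05. Alternatives were DESeq2 1.42.0, limma-voom 3.58.1, other scalings, no filter, the replicate block and fits without 1 retina. The scripts were tested on simulated counts.

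The 10 genes, the 6 lists, the 12 marker lists and the motifs were chosen with earlier results of these data known. The genes named were the 10, Wfs1, in each list up to 4 tested genes with a mean of at least 50 counts and the largest absolute change and any that passed in edgeR with or without Wfs1-KO replicate 2, the tested neighbours within 500 kb of the Alpk1 start, and the 5 genes of at least 1 CPM nearest to Alpk1 in profile. Gm43322, Gm42515, the targets that edgeR did not test and the single marker genes were named after their values were seen. The starts used for distances to Alpk1 were the lowest coordinates of the genes. Precision is limited by 3 retinas per genotype and by depth.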

Additional observations from a re-analysis of the deposited data

How the results depend on the processing

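The number of genes called among all genes tested, 2 in the edgeR fit on all 6 retinas, was 49 with DESeq2, 9 with no filter on low counts, 1 with the replicate block, 95 with DESeq2 without Wfs1-KO replicate 2, and between 0 and 24 when 1 retina at a time was left out. The highest of these was without Wfs1-KO replicate 2 and the lowest, 0, without any of the WT replicates. Of the 10 route genes, 0 were called in the edgeR fit on all 6 retinas, 1 with DESeq2, 1 with DESeq2 without Wfs1-KO replicate 2, and between 0 and 1 with 1 retina left out, the 1 being Alpk1 each time. Of the further pathway genes, 2 were called with DESeq2 without Wfs1-KO replicate 2 and 0 in every other fit, and no neighbour of Alpk1 was called in any of the 13 alternatives. The log2 fold change over these 13 ranged from 1.59 to 1.99 for Alpk1 and from 0.52 to 0.65 for Tifa. It ranged from -0.17 to 1.06 for Nfkbia, whose values without Wfs1-KO replicate 2 were -0.17 in edgeR and in DESeq2. With 1 retina left out, the sign turned for 4 more of the 10, with no call: Map3k7 (-0.23 to 0.15), Tab2 (-0.043 to 0.13), Rela (-0.18 to 0.029) and Nfkb1 (-0.38 to 0.024). It also turned, with no call in either direction, for Atf2 (from -0.36 to 0.017), Larp7 (-0.23 to 1.01), Relb (-0.19 to 0.51), Tradd (-0.027 to 0.47), Trpm7 (-0.50 to 0.12) and Fam241a (-0.21 to 0.018). In DESeq2 without Wfs1-KO replicate 2 the first 5 of these had 0.017, -0.23, -0.19, -0.027 and 0.12. The cause of these changes was not tested. Retinas that share a replicate number share only that number: the deviations of WT and mutant replicates 1, 2 and 3 from their group means correlated at -0.234, -0.111 and 0.0784, mutant replicate 2 correlated best with WT replicate 1 (0.272), not with its own number, and the replicate block called 0 of the 10 route genes. Counts of 26 to 182 for Alpk1 in WT and in mutant replicate 2 limit its precision there.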
